A study of Mus musculus with 12 samples.

Results

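The livers of MOER mice were set against the livers of ERKO mice, all injected with PPT, a compound that activates oestrogen receptor alpha selectively. By their labels, ERKO mice have no oestrogen receptor alpha and MOER mice have it at the cell membrane alone. The comparison used 4 of the 12 arrays of the series, 2 of MOER mice given PPT and 2 of ERKO mice given PPT, chosen by the genotype and treatment in their titles. The other 8 arrays were wild type mice given oil or PPT, ERKO mice given oil and MOER mice given oil, 2 arrays each. All mice were 3 months old, labelled C57BL/6, had their ovaries removed and were left for 1 week. PPT was injected into the peritoneum at 100 µg a day for 3 days, and the oil groups received 0.1 mL of oil. Whole liver was taken, the RNA of 3 animals was pooled for each array, and the labels state that the experiment was repeated. They do not say that the repeat used other animals, so the p-values speak only to how far these arrays spread, which may be technical. How the ERKO and MOER alleles were made is not stated in the sources used. The study's title credits an effect of oestrogen on liver lipid to the receptor at the membrane, and a difference between MOER and ERKO under the agonist bears on that question.

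Oestrogen receptor alpha is a ligand-activated transcription factor that binds DNA in the nucleus. A pool of the receptor at the plasma membrane couples instead to kinase signalling. In mouse liver, many genes of steroid and drug metabolism differ between the sexes, and the pattern of growth hormone release, read through the transcription factor STAT5B, is known to set most of these differences. Liver is also the main source of acute phase and coagulation proteins, and it makes cholesterol, fatty acids, bile acids and glucose under the control of insulin, sterols and inflammatory signals.

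The arrays were Affymetrix Mouse Gene 1.0 ST, on which each probe set gives a hybridisation intensity without unit. Median intensities lay between 77.5 and 85.26 over the 12 arrays. The 2 arrays of MOER PPT correlated at 0.9949 and those of ERKO PPT at 0.9942 (Pearson's r over probe sets, not independent of each other), and the numbers of probe sets that were over 2-fold apart within these pairs were 2 and 20. The ERKO oil pair stood apart from the other pairs, with r at 0.9815 and 162 such probe sets. It enters the results below only through the shared estimate of the spread and through the comparisons with oil. Of 28815 probe sets, 19119 exceeded their array's 40th percentile at least 2 times among the 12 arrays and were tested, and a gene is represented by 1 probe set.

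The labels were checked against marker genes. Esr1, the gene of oestrogen receptor alpha, read 347 and 365 in wild type oil and 309 and 325 in wild type PPT. It read 146 and 162 in ERKO PPT and 117 and 131 in MOER PPT, a log2 difference of -0.27 ± 0.093 that did not pass the test (adjusted p = 0.0595). The probe set thus tells wild type from both mutants and does not tell MOER from ERKO. Xist, expressed from the inactive X chromosome of females, read 2120 to 2832 on all 12 arrays, and the Y-linked genes Kdm5d, Eif2s3y and Uty read at most 69.6. H2-Ea, a class II histocompatibility gene whose transcript is missing in mice of the H-2b haplotype such as C57BL/6, read 5605 and 5622 in MOER oil and 2656 and 2603 in MOER PPT, against 15.4 to 23.5 on the 8 wild type and ERKO arrays. MOER livers therefore differed from the others in a strain marker, and genotype and strain background cannot be told apart in any comparison with MOER. Hepatocyte markers were bright in all groups. Their summed intensity over 12 genes was 108061 and 108828 in ERKO PPT and 121349 and 127359 in MOER PPT.

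In MOER PPT against ERKO PPT, 4225 of 19119 probe sets (22.1%) were called at an adjusted p under 0.05 (limma, Benjamini-Hochberg adjustment over all tested probe sets), 1917 higher in MOER and 2308 higher in ERKO. The median log2 difference over all of them was 0.02. Of 13987 genes, 1560 (11.2%) were higher in MOER and 1461 (10.4%) higher in ERKO, with a median difference of 0.05. These shares are the background for the gene lists below. At least 2-fold differences were called for 253 genes (1.81%), 86 higher in MOER and 167 higher in ERKO. Of these, 59 exceeded the 40th percentile on no array outside the group where they were high, 3 in MOER PPT and 56 in ERKO PPT. Such genes had to differ to be tested, so those that are named are described by their values and bounds, without a p. With only 2 arrays a group, the number of calls depended on each array. It was 1848 probe sets without MOER PPT replicate 1, 1920 without ERKO PPT replicate 2, 2143 without ERKO PPT replicate 1 and 2394 without MOER PPT replicate 2. Where a list's count of 2 or more moved by more than 1.5 times in these 4 fits, its range over them is given.

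The 253 genes fell into 3 classes. Genes of the skeletal muscle, squamous, airway and pancreatic lists numbered 43, of which 41 were higher in ERKO. Genes above the 60th percentile of both wild type oil arrays, called genes of wild type liver here, numbered 66 higher in MOER and 53 higher in ERKO. The remaining genes numbered 18 and 73. Of the 167 genes higher in ERKO PPT, 87 were at least 2-fold above each of the other 10 arrays. They included 37 of the 41 listed non-liver genes and 6 of the 53 genes of wild type liver.

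Transcripts of skeletal muscle stood out in both ERKO PPT arrays. Smpx, which encodes a small protein of the muscle costamere, read 6012 and 6690.0 in ERKO PPT and 34.1 and 31.6 in MOER PPT. The ERKO value was at least 105-fold higher, where a bound is given because both MOER arrays lay under their own 40th percentile. Tnnc2, the calcium-binding troponin of fast muscle, read 6499.5 and 5499 against 74.4 and 63.2, 70.8-fold higher in ERKO (adjusted p = 2.08e-10). Myh1, a fast myosin heavy chain, read 877 and 914 against 10.8 and 7.08, at least 14.8-fold higher in ERKO. Mybpc1, which encodes a myosin-binding protein, read 1743 and 1619 against 47 and 38.2, and the myosin light chain gene Myl1 read 893 and 772 against 3.49 and 18.6. Xirp2, a gene of actin-binding repeats in striated muscle, read 1189 and 1029.5 against 22.7 and 18.9, and the giant sarcomere protein gene Ttn read 658 and 589.6 against 36.3 and 35.6. For each of these 7 genes the 2 ERKO PPT arrays were close to each other and far from all 10 others.

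Over the whole muscle list, which has 47 genes on the array, the summed intensity was 36062 and 34856 in the 2 ERKO PPT arrays and 2260 to 2929 in the other 10. ERKO PPT lay above all 10 other arrays for 40 of the 47 genes, at least 2-fold for 28. Only 13 to 14 of the 47 exceeded the 40th percentile in both arrays of any other group, against 41 in ERKO PPT. The 41 muscle genes that passed the filter did so largely through the ERKO PPT arrays, so their 36 calls higher in ERKO describe the pattern and support nothing beyond it. Under oil, 0 of the 41 were called between MOER and ERKO. In whole-tissue RNA, fewer cells of a type and less RNA per cell cannot be told apart, and the part of muscle tissue in these 2 pools was not tested further.

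Some transcripts of squamous epithelium, among them late differentiation genes, also set the ERKO PPT arrays apart. Rptn, repetin of the cornified envelope, read 3439 and 3254 in ERKO PPT and 24.4 and 20.4 in MOER PPT, at least 55.3-fold higher in ERKO. Krtdap, the keratinocyte differentiation-associated protein gene, read 2843 and 2980.2 against 18.2 and 22.4, at least 48.1-fold. Krt13, a keratin of the upper layers of oral and oesophageal lining, read 2447 and 2288 against 54.9 and 36.9, at least 39.1-fold. Sprr3, a small proline-rich envelope protein gene, read 592 and 555 against 26.6 and 34.4. Lgals7, a galectin of stratified epithelia, read 177 and 192 against 42.5 and 40.5. Unlike the others named here, Lgals7 did not lie at least 2-fold above each of the other 10 arrays in ERKO PPT. Several genes of the basal layer were dim. Krt5, Krt14, Krt15, Dsg3 and Trp63, and also the keratin gene Krt6a, which does not define that layer, read at most 71.4 on any of the 12 arrays. Serpinb5, another gene of the squamous list, was dim as well but highest in ERKO PPT, at 40.93 and 35.47 against 6.33 and 7.88 in MOER PPT.

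Other squamous genes were brightest in wild type PPT. Krt4, the keratin partner of Krt13, read 451 and 435 in ERKO PPT and 20.4 and 16.5 in MOER PPT, but 3308 and 3210.1 in wild type PPT. Ly6d, a surface antigen of keratinocytes and lymphoid progenitors, read 2248 and 2011 in ERKO PPT, 1010.3 and 944 in MOER PPT and 21658 and 21989.8 in wild type PPT. The summed squamous intensity over 46 genes, Ly6d included, was 16638 and 16253 in ERKO PPT, 31259 and 30938 in wild type PPT, and 4482 to 5298 in the other 8 arrays. Ly6d alone made up most of the wild type PPT sums, which are therefore not a measure of squamous transcripts as a whole. Of the 33 squamous genes tested, 11 were higher in ERKO PPT, 6 of them admitted to the test by the ERKO PPT arrays alone, and 2 in MOER PPT (1 without 1 of the 4 arrays). The 2 higher in MOER PPT were Tgm1 and Dsc2. Their log2 differences were 0.62 to 0.94 and 0.38 to 0.45 with 1 of the 4 arrays left out. In ERKO PPT 16 of the 46 lay above all other arrays, 6 of them at least 2-fold.

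Of the airway list, 2 secreted products were bright in ERKO PPT alone. Scgb1a1, the secretoglobin of club cells, read 1162 and 1134 in ERKO PPT against 5.43 and 4.24 in MOER PPT, at least 19-fold higher. Sftpc, the surfactant protein C gene of alveolar type II cells, read 1903 and 1741 against 19.5 and 11.1, at least 30.1-fold higher. Reg3g, a secreted antibacterial lectin, read 754 and 744 in ERKO PPT, 197 and 235 in MOER PPT and at most 11.3 on the other 8 arrays. Sftpb, Sftpd, Bpifa1 and Scgb3a2 read at most 52.1 on any array, and Foxj1, the regulator of ciliated cells, at most 94.2. Another surfactant gene, Sftpa1, read 237.6 and 190.5 in ERKO PPT, 189.2 and 178.4 in MOER PPT and 62.17 to 210.2 on the other 8 arrays. Of 14 airway genes tested, 3 were higher in ERKO PPT, 2 of them admitted to the test by the ERKO PPT arrays alone. The 1 higher in MOER PPT was Cyp2f2, which is also in the drug-metabolising P450 list. The summed airway intensity over 25 genes, Cyp2f2 included, was 7309 and 7280 in ERKO PPT and 4026 to 6572 elsewhere. This sum is therefore not a measure of airway transcripts alone.

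Genes outside these lists shared the pattern. Serpinb3a, a serpin of epithelial surfaces, read 6018 and 6818 in ERKO PPT against 11.8 and 17.9 in MOER PPT, at least 106-fold higher. The related Serpinb12 read 5224 and 5556 against 33.6 and 31, at least 89-fold higher. Cox8b, a cytochrome oxidase subunit of heart and muscle, read 2196 and 2068 against 40.1 and 42.2 (at least 35.2-fold), and Fabp3, the fatty acid binding protein of heart and muscle, 1875 and 1809 against 40 and 31.7 (at least 30.4-fold). Apobec2, a deaminase family member expressed in muscle, read 923 and 817 against 35.1 and 26.3, and Defb4, an epithelial defensin, 473 and 359.5 against 8.59 and 10.4. In all, 44 of the 73 remaining genes higher in ERKO lay at least 2-fold above each other array. By the class rule, genes that muscle is known to express could also count as wild type liver genes. An example was Cox7a1, a muscle isoform of a cytochrome oxidase subunit, at 1151 and 1107 against 187 and 223. Others were Slc25a4, the adenine nucleotide translocator of heart and muscle, at 1863 and 1665 against 332 and 355, and Klhl41, a kelch protein of the sarcomere, at 1200.2 and 1032 against 255 and 317. The wild type liver class was not screened for all such genes, so its count higher in ERKO is not free of muscle transcripts.

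**Figure D1:**
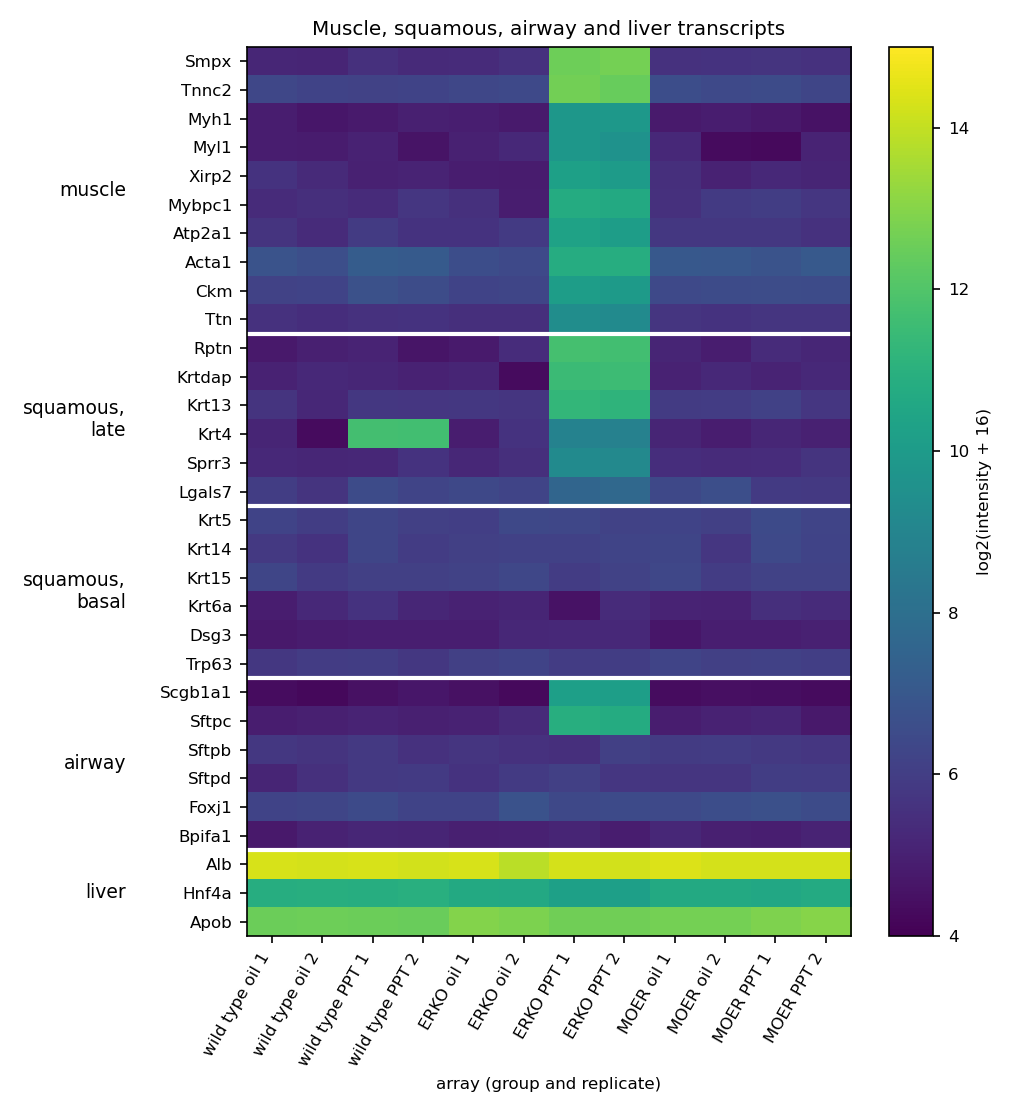
Heat map of log2(intensity + 16) for muscle, squamous, airway and liver genes (rows) in the 12 arrays (columns, 2 per group). Muscle genes, the late squamous genes Rptn, Krtdap, Krt13 and Sprr3, Scgb1a1 and Sftpc are bright in the 2 ERKO PPT arrays. The genes drawn as basal squamous, among them Krt6a, which does not define the basal layer, are dim in all 12. Krt4 is brightest in wild type PPT. The liver genes Alb, Hnf4a and Apob are bright throughout.

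Of 19 liver genes of male pattern, 9 were higher in ERKO PPT, among them those with the largest differences. Of the 9, 1 (Hsd3b5) was admitted to the test by the ERKO PPT arrays alone. Slco1a1, an organic anion transporter of the hepatocyte membrane, read 3247 and 3301 in ERKO PPT and 53.5 and 78.2 in MOER PPT, a difference of 40.6-fold (log2 -5.35 ± 0.15, adjusted p = 3.4e-09). The other 8 arrays lay between them, at 268.6 to 456.4, so that ERKO PPT was the highest group and MOER PPT the lowest. Elovl3, a fatty acid elongase, read 1689.8 and 1597 in ERKO PPT, 25 and 21.2 in MOER PPT and 1.05 and 0.18 in wild type PPT, and the ERKO value was at least 27.1-fold that of MOER (adjusted p = 2.02e-08). Hsd3b5, a steroid dehydrogenase family member, read 512 and 486 against 4.01 and 7.66, at least 8.24-fold higher in ERKO, and at most 34.03 on the 10 arrays other than ERKO PPT. These 3 genes are known for high levels in male and low levels in female mouse liver.

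The fatty acid omega-hydroxylases Cyp4a12a and Cyp4a12b gave another order. Cyp4a12a read 4589 and 4715 in ERKO PPT and 753 and 792 in MOER PPT (5.92-fold, adjusted p = 4.41e-06), and Cyp4a12b read 4053 and 4221 against 571 and 576 (7.04-fold, adjusted p = 8.93e-08). Both were near background in wild type, where Cyp4a12a read at most 30.2, and under oil both were higher in MOER than in ERKO, by 1.42 (adjusted p = 0.00181) and 1.35 (adjusted p = 0.0002) on the log2 scale. Probe sets of this closely related pair may share transcripts. Of the other male-biased genes, 1 was higher in MOER PPT (Selenbp2, 0.63) and 9 did not pass the test. The list's median difference was -0.36, beside 0.05 over all genes. Cyp7b1, the oxysterol hydroxylase of male-biased expression, read 1259 and 1216 in ERKO PPT and 1058 and 1091 in MOER PPT and was not called (adjusted p = 0.175).

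Of 22 liver genes of female pattern, 11 were higher in MOER PPT. Sult1e1, the oestrogen sulfotransferase, read 1089.7 and 1336 in MOER PPT and 52.1 and 55.1 in ERKO PPT, at least 20.4-fold higher in MOER (adjusted p = 5.08e-09). Wild type PPT read 244 and 219, and MOER PPT lay above every other array. Among cytochrome P450 genes of steroid and drug metabolism, Cyp2b13 read 829.8 and 838 in MOER PPT and 106 and 106 in ERKO PPT (6.96-fold, adjusted p = 1.01e-08). Cyp2b9 read 4507 and 4582 against 1167 and 1169.6 (3.85-fold, adjusted p = 8.93e-08), and Cyp3a16 read 289.9 and 312 against 37.2 and 14.2 (at least 5.09-fold, adjusted p = 0.00038). For Cyp2b13 and Cyp3a16 the ERKO PPT arrays were the lowest of the 12, whereas for Cyp2b9 wild type PPT was also low, at 1402 and 1362.

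Sult3a1, a sulfotransferase gene of the female-biased list, and the related Sult3a2 read 927 and 1206 and 181 and 266 in MOER PPT against 242 and 265 and 51.4 and 52.2 in ERKO PPT, 3.99-fold and at least 3.72-fold higher in MOER. Both were far higher in wild type PPT, at 6969.9 and 6153 and 3845 and 3394. Hao2, a peroxisomal hydroxyacid oxidase, read 103 and 123 against 31.7 and 36.7 in ERKO PPT (at least 1.91-fold). Of the other female-biased genes, 3 were higher in ERKO PPT (Fmo2, Fmo4 and Cyp4a14, at -0.57, -0.71 and -0.26, the last a call lost whichever of the 4 arrays was left out, adjusted p up to 0.176) and 8 did not pass the test. The median of the list was 0.38. The difference reached 2-fold for 9 of the 22 female-biased and 5 of the 19 male-biased genes, beside 1.81% of all genes. The 5 include Hsd3b5, which the ERKO PPT arrays alone admitted to the test.

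**Figure D2:**
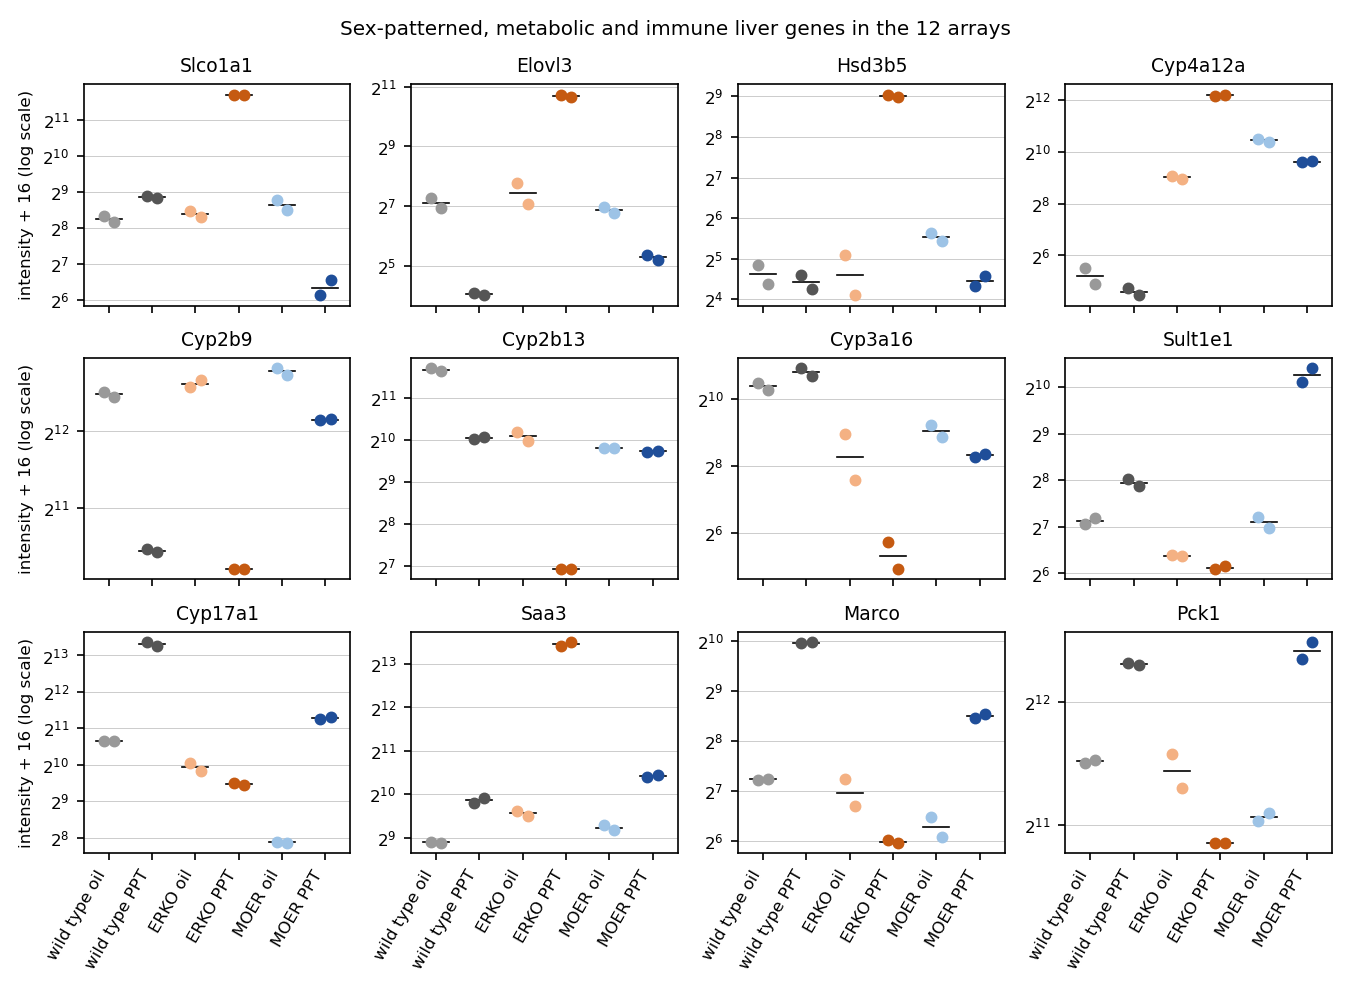
Intensity plus 16 on a log scale for 12 liver genes in the 6 groups, with a point for each array and a line at the mean of the 2 log values. Slco1a1, Elovl3, Hsd3b5, Cyp4a12a and Saa3 are highest in ERKO PPT, Cyp2b13 and Cyp3a16 are lowest there, and Sult1e1 is highest in MOER PPT.

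Genes of growth hormone signalling differed in both directions. Socs2, a STAT5 target that restrains growth hormone receptor signalling, read 85.7 and 107 in MOER PPT, the lowest of the 12 arrays, and 259 and 265 in ERKO PPT (2.49-fold higher in ERKO, log2 -1.32 ± 0.12, adjusted p = 4.98e-05). A second probe set of Socs2 differed by -0.96 (adjusted p = 0.000101). Onecut1, a hepatocyte transcription factor, read 93.5 and 83.5 against 192 and 213 (2.09-fold higher in ERKO), and Bcl6, a repressor that competes with STAT5, read 248 and 261 against 156 and 167 (1.52-fold higher in MOER, adjusted p = 0.000928). Bcl6 was lower in all 8 arrays other than these 4, at 50.4 to 106.4. Cish, another STAT5 target, read 29.4 and 25.8 against 48.4 and 40.2, all under the 40th percentile of their arrays. Beside it, Stat5b itself read 260.4 and 282 against 214 and 204. Both were called (adjusted p = 0.0323 and 0.0257), and both calls were lost whichever of the 4 arrays compared was left out (adjusted p up to 0.187 and 0.137). Igf1, the liver's main endocrine growth factor, differed by -0.21 and was not called (adjusted p = 0.101). Of 12 genes tested, 3 were higher in MOER and 4 in ERKO, and 1 and 2 were called without 1 of the 4 arrays.

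Cyp17a1, the steroid hydroxylase and lyase of androgen synthesis, belongs to both the female-biased and the oestrogen-responsive lists. It read 2449.9 and 2552 in MOER PPT, 704 and 679 in ERKO PPT and 10535 and 9708 in wild type PPT. MOER was 3.56-fold higher than ERKO under PPT (adjusted p = 5.19e-07), while under oil it read 222 and 216 in MOER and 1045 and 902 in ERKO, a difference of -2.07 in the other direction (adjusted p = 5.3e-07). Agt, angiotensinogen, was 2.62-fold higher in MOER PPT (2973 and 3087 against 1138 and 1151), and Egr1, an immediate early transcription factor, 1.47-fold higher. Apoa4, an apolipoprotein, was 1.7-fold higher in ERKO PPT. Of 19 oestrogen-responsive genes tested, 5 were higher in MOER, 1 in ERKO and 13 did not pass the test, with a median of 0.20. Lifr, the leukaemia inhibitory factor receptor, differed by -0.10 (adjusted p = 0.439), and Lcn2, the iron-sequestering lipocalin, by -0.04 (adjusted p = 0.815).

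Of 20 cholesterol synthesis genes, 12 were lower in MOER PPT than in ERKO PPT, 1 was higher (Ebp, 0.44, a call lost whichever of the 4 arrays was left out, adjusted p up to 0.195) and 7 did not pass the test, with a median log2 difference of -0.38 beside 0.05 over all genes. Hmgcs1, the synthase that makes HMG-CoA at the head of the pathway, read 2534 and 2699 in MOER PPT and 3854 and 4044 in ERKO PPT (-0.59 ± 0.087, adjusted p = 0.00108). Mvd, mevalonate decarboxylase, read 125 and 113 against 243 and 237 (-0.93 ± 0.11, adjusted p = 0.000282). Idi1, the isopentenyl isomerase, read 2908 and 3276 against 5734 and 5920.3 (-0.91 ± 0.10, adjusted p = 0.000175), and a second probe set of Idi1 differed by -0.91. Fdps, farnesyl diphosphate synthase, read 2153 and 2187 against 3686 and 3769 (-0.78 ± 0.10, adjusted p = 0.000585). The arrays of MOER PPT and ERKO PPT did not overlap for these 4 genes. They were named for the smallest p in their list, so this lack of overlap adds no support.

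Set against wild type PPT, whose arrays are shared by both values, the 4 genes did not line up alike. Idi1 was 0.30 in MOER and 1.22 in ERKO, Mvd 0.12 and 1.04, and Fdps 0.87 and 1.65, all higher than in wild type except that Mvd in MOER was not called (adjusted p = 0.432). Hmgcs1 was -0.83 in MOER and -0.24 in ERKO, the latter not called (adjusted p = 0.061). Over the list, 16 of 20 genes were higher than wild type PPT in MOER and 18 of 20 in ERKO, with medians of 0.82 and 1.14, where 37.2% and 34.3% of all genes were called in either direction. Srebf2, the sterol-sensing transcription factor of the pathway, differed between MOER and ERKO by 0.20 and was not called (adjusted p = 0.214).

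The promoter of Hmgcs1 is shown because it was the 1 of the 11 called cholesterol genes with a promoter in the RefSeq table (GRCm38.p6) that held the letters TCACNCCAC, a form of the sterol regulatory element, on either strand within 250 bases before the start. The match, in capitals, begins 137 bases before the start of the gene, which lies on the plus strand. The window printed is chr13:119690101-119690350.
Hmgcs1: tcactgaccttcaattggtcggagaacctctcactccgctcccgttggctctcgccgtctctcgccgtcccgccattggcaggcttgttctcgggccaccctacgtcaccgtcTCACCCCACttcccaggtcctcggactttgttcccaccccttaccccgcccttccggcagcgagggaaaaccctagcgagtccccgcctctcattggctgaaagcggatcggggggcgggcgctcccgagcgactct
Of all 27025 genes with a promoter in the table, 331 (1.22%) held these letters, beside 1 of 16 tested cholesterol genes (6.25%). A match is a description of the letters and not a measured site.

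Fatty acid synthesis genes differed in both directions. Of 21 tested, 3 were higher in MOER and 8 in ERKO (1 to 3 and 3 to 6 without 1 of the 4 arrays), with a median of -0.10. Thrsp, a gene induced with lipogenesis, read 1829.9 and 1688 in MOER PPT and 4178 and 4406 in ERKO PPT (2.43-fold higher in ERKO, adjusted p = 1.06e-05), and Me1, the malic enzyme that supplies NADPH, 857 and 849 against 1327 and 1299 (1.53-fold higher in ERKO, adjusted p = 0.0005). Fads1, a fatty acid desaturase, was 1.41-fold higher in MOER (1325 and 1277 against 940.3 and 895). Fasn, fatty acid synthase, differed by -0.35 ± 0.10 and Scd1, the stearoyl-CoA desaturase, by 0.38 ± 0.095 (adjusted p = 0.0311 and 0.0164). The call of Fasn was lost whichever of the 4 arrays was left out (adjusted p up to 0.156) and that of Scd1 without ERKO PPT replicate 1 or either MOER PPT array (adjusted p up to 0.114). Srebf1, the lipogenic sterol-response factor (0.12), Acaca, acetyl-CoA carboxylase (0.07), and Acly, ATP citrate lyase (-0.10), were not called (adjusted p = 0.516, 0.664 and 0.483).

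For fat storage and oxidation the counts were small. Of 20 genes of triglyceride synthesis and lipid droplets, 7 were higher in MOER and 1 in ERKO, but only 1 to 2 stayed called higher in MOER without 1 of the 4 arrays. Plin3, a lipid droplet coat protein gene, read 478 and 467 in MOER PPT and 319.7 and 314 in ERKO PPT (1.47-fold, adjusted p = 0.00395). Of 29 genes of fatty acid oxidation and PPAR-alpha targets, 7 were higher in each genotype (1 to 3 in MOER and 3 in ERKO without 1 of the 4 arrays). Cpt1a, the carnitine transferase that admits fatty acids to mitochondria, was 1.9-fold higher in MOER (1120.0 and 1082 against 583 and 559, adjusted p = 6.33e-05). Pdk4, the kinase that shuts off pyruvate dehydrogenase, was 3.11-fold higher in ERKO (282 and 282 against 87.5 and 72.6, adjusted p = 0.00153), and the omega-hydroxylases Cyp4a10 and Cyp4a31 were 2-fold and 2.26-fold higher in ERKO. Among named genes outside the lists, Lpl, lipoprotein lipase, was 3.7-fold and Fabp2, the intestinal-type fatty acid binding protein, 3.39-fold higher in ERKO PPT. Lpl is also expressed in muscle and fat. The muscle transcripts of ERKO PPT lie on the same arrays, and their part in the Pdk4 and Lpl values was not tested. The adipocyte gene Fabp4 read 1123 and 1066 in ERKO PPT and 282 and 325 in MOER PPT, and also 951 and 949.9 in wild type PPT.

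Genes of bile acid synthesis and transport differed in both directions. Cyp8b1, the sterol hydroxylase that sets cholic acid content, was lower in MOER PPT, at 273 and 256 against 489 and 473 in ERKO PPT (-0.83 ± 0.10, adjusted p = 0.000388), and so was Cyp7a1, the rate-limiting enzyme, at 1336 and 1439 against 1905 and 1865 (-0.44 ± 0.087, adjusted p = 0.00552). The call of Cyp7a1 was lost without MOER PPT replicate 1 (-0.39, adjusted p = 0.0517). Wild type PPT read 16 and 16.8 for Cyp8b1 and 20.8 and 22.6 for Cyp7a1, far below both mutants. Slc27a5, the bile acid-CoA ligase of conjugation, was 1.65-fold higher in MOER PPT (4068 and 4096 against 2523 and 2427, adjusted p = 0.000323). Slco1a4, an anion transporter, was 1.63-fold higher in MOER, and Nr0b2, the repressor SHP, 1.81-fold higher in ERKO. Of 28 genes tested, 11 were higher in MOER and 5 in ERKO (5 to 7 and 3 to 4 without 1 of the 4 arrays), with a median of 0.21.

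Of 16 genes of glucose production and insulin response, 8 were higher in MOER PPT and 0 in ERKO PPT. Pck1, the carboxykinase that commits oxaloacetate to gluconeogenesis, read 5211 and 5729 in MOER PPT, 1841 and 1838 in ERKO PPT and 5087 and 5031 in wild type PPT. MOER was 2.95-fold higher than ERKO (log2 1.56 ± 0.10, adjusted p = 3.33e-06). Pcx, pyruvate carboxylase, was 2.11-fold higher (911 and 894 against 434 and 405, adjusted p = 4.31e-05), Got1, an aspartate aminotransferase, 1.92-fold higher (adjusted p = 4.93e-05), and Tat, tyrosine aminotransferase, 1.63-fold higher (adjusted p = 0.00103). The list's median was 0.32, and 6 to 7 were called without 1 of the 4 arrays.

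Of 15 urea cycle and periportal genes, 11 were higher in MOER and 1 in ERKO (Cdh1, -0.71), with a median of 0.45 and 7 to 8 higher without 1 of the 4 arrays. Asl, argininosuccinate lyase, read 3181 and 3236 against 1541 and 1453 (2.13-fold), Cps1, the carbamoyl phosphate synthetase that starts the cycle, 8674 and 9656 against 5157 and 5072 (1.79-fold), and Hal, histidine ammonia-lyase, 3523 and 3649 against 2059 and 1991 (1.76-fold). Of 17 pericentral genes, 10 were higher in MOER and 1 in ERKO (Cyp7a1), with a median of 0.41. Slc1a2, a glutamate transporter, was 2.46-fold higher in MOER (adjusted p = 3.89e-06), Glul, glutamine synthetase, 1.75-fold and Gulo, the last enzyme of vitamin C synthesis, 1.63-fold. In the lists of both ends of the liver lobule, more genes were called higher in MOER than in ERKO. Hepatocyte markers moved with them: 6 of 12 were higher in MOER and 0 in ERKO (3 to 5 without 1 of the 4 arrays), with a median of 0.32, while Alb, the albumin gene, differed by 0.04 (adjusted p = 0.862). The lists share members, so their counts are not independent. Cps1 and Tat are called in both the hepatocyte and the periportal list, and Pck1 and Tat also count in the glucose production list. Whether the hepatocyte share of the RNA bears on these lists was not tested.

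Of 16 genes of secreted hepatocyte proteins, 6 were higher in MOER and 0 in ERKO, with a median of 0.25. Fetub, a fetuin, was 2.43-fold higher in MOER (2903 and 3041 against 1140.4 and 1290.4, adjusted p = 7.28e-06), Itih1, a heavy chain of the inter-alpha-trypsin inhibitor, 2.02-fold, and Serpina6, the corticosteroid-binding globulin, 1.79-fold. Among drug-metabolising P450 genes and their regulators, 10 of 22 were higher in MOER and 1 in ERKO, with a median of 0.26. Cyp3a13 read 3427 and 3729 in MOER PPT and 1374 and 1389 in ERKO PPT (2.57-fold, adjusted p = 4.32e-06), Cyp2d26 was 1.73-fold higher in MOER, and Nr1i3, the constitutive androstane receptor that regulates such genes, 1.67-fold. Cyp2c55 was the exception, 2.33-fold higher in ERKO (774 and 774 against 297 and 352). Of 18 glutathione S-transferase genes, 5 were higher in MOER and 1 in ERKO (2 to 3 and 0 without 1 of the 4 arrays). Their median was -0.08 and turned to 0.02 under quantile normalization.

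Solute carriers and other liver genes were among the largest differences. Slc22a26, an organic anion transporter gene, read 3139 and 3336 in MOER PPT against 909 and 831 in ERKO PPT (3.68-fold, adjusted p = 2.44e-07). Slc7a2, a transporter of cationic amino acids, was 3.11-fold higher in MOER (1566 and 1728 against 511 and 525), and Noct, the deadenylase nocturnin with a daily rhythm, 5.01-fold (591 and 513 against 96.8 and 97.4). In the other direction, Clec2h, a C-type lectin, was 6.95-fold higher in ERKO PPT, Nrep, a gene of neuronal regeneration, 4.18-fold, and Serpina12, the adipokine vaspin, at least 3.41-fold. Among the remaining genes, Adgrg7, an adhesion G protein-coupled receptor, read 281 and 274 in MOER PPT and at most 39.2 on the other 10 arrays (at least 4.7-fold higher). Abhd1, a hydrolase family member, was 4.48-fold higher in MOER, Jchain, the joining chain of immunoglobulins, 3.23-fold, Pcdh11x, a protocadherin, at least 2.11-fold, Cyp2b19, a P450, at least 1.7-fold, and Aoah, an enzyme that inactivates endotoxin, at least 1.97-fold. G530011O06Rik, a transcript of unassigned function, was 4.04-fold higher in MOER PPT and also higher there under oil.

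Of 25 cytokine signalling genes, 18 were higher in MOER and 0 in ERKO, with a median of 0.48, and 9 to 10 were called without 1 of the 4 arrays. Stat3, the factor that conveys interleukin-6 signals, read 638 and 686 in MOER PPT and 299 and 266 in ERKO PPT (2.27-fold, log2 1.19 ± 0.094, adjusted p = 1.59e-05). Its feedback inhibitor Socs3 read 262 and 263 against 144 and 154 (1.69-fold, adjusted p = 0.000359), with another probe set at 0.16 that was not called (adjusted p = 0.682). The tumour necrosis factor receptors Tnfrsf1a and Tnfrsf1b were 1.94-fold and 1.64-fold higher in MOER. The 4 genes were called in each of the 4 fits without 1 array.

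Most of the acute phase genes that were called were higher in MOER PPT. Of 30 tested, 14 were higher in MOER and 2 in ERKO, with a median of 0.29. Lbp, the lipopolysaccharide-binding protein, read 1858 and 1920.0 in MOER PPT and 689 and 668 in ERKO PPT (2.74-fold, adjusted p = 8.84e-07), and Steap4, a metalloreductase induced by interleukin-6, 3224 and 3466 against 1496 and 1529 (2.2-fold, adjusted p = 7.23e-06). The 2 genes higher in ERKO were Saa3, a serum amyloid made also outside hepatocytes, at 10862 and 11592 against 1342 and 1385 (8.15-fold, adjusted p = 5.91e-09), and A2m, alpha-2-macroglobulin, at 1681 and 1577 against 379 and 381 (4.15-fold, adjusted p = 2.09e-06). Both lay at least 2-fold above each of the other 10 arrays in ERKO PPT, as did 28 of 47 muscle and 6 of 46 squamous genes. Whether Saa3 and A2m belong with those transcripts was not tested. The hepatocyte amyloids did not follow: Saa1 read 11101 and 11722 in ERKO PPT and 12277 and 11537 in MOER PPT, and neither it nor Saa2 was called (adjusted p = 0.785 and 0.967).

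Of 29 interferon-induced genes, 16 were higher in MOER PPT and 0 in ERKO PPT, with a median of 0.45, and 9 to 13 were called without 1 of the 4 arrays. Irf7, the master regulator of the type I interferon response, read 523 and 497 in MOER PPT, 234 and 207 in ERKO PPT and 262 and 261 in wild type PPT, with MOER 2.23-fold above ERKO (adjusted p = 0.00021). Rtp4, a restriction factor, was 1.51-fold higher (1123 and 1103 against 711 and 748), Oasl2, an oligoadenylate synthetase-like gene, 1.66-fold (123 and 133 against 71.9 and 69.3), and Ifih1, the RNA sensor MDA5, 1.52-fold (467 and 507 against 299.7 and 332). Both MOER PPT arrays lay above both ERKO PPT arrays for these 4 genes, which adds no support, since they were chosen by smallest p.

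Because the list moved in 1 direction, the promoters of Irf7, Ifit3 and Rsad2 are shown as examples. No rule picked these 3 from the 11 called genes with a promoter, and Gbp3 and Stat2, not shown, also held matches. The letters searched on both strands were GAAA, any 2 bases, GAAA, a form of the interferon-stimulated element, within 250 bases before the start (RefSeq, GRCm38.p6), and matches are in capitals. Ifit3, on the plus strand, with its window at chr19:34583279-34583528, held 2 matches on the opposite strand, 156 and 122 bases before the start. Rsad2, on the minus strand, with its window at chr12:26456453-26456702 and printed in gene direction, held 1, 120 bases before the start. Irf7, on the minus strand, with its window at chr7:141266425-141266674, held none in this window.
Ifit3: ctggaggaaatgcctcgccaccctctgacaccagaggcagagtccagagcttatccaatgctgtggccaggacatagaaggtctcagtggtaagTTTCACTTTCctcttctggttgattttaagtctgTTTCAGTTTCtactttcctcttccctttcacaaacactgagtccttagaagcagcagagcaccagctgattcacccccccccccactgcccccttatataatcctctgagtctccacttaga
Rsad2: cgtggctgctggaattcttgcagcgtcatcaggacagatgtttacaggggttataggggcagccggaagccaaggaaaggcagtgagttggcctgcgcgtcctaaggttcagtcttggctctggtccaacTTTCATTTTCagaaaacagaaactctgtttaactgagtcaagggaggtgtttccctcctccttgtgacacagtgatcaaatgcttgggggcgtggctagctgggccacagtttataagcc
Irf7: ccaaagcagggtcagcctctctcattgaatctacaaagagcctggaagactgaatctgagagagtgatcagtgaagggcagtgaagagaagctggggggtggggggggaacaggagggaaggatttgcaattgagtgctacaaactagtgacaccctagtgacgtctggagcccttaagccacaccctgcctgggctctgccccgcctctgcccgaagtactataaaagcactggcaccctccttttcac
The letters were in 4 of the 11 called interferon genes with a promoter in the table (36.4%), in 8 of 22 tested (36.4%) and in 936 of 27025 genes (3.46%). The calls of Ifit3 (0.52 ± 0.12, adjusted p = 0.00987) and Rsad2 (0.45 ± 0.13, adjusted p = 0.0277) did not hold in each fit without 1 array: that of Rsad2 was lost whichever of the 4 arrays was left out (adjusted p up to 0.169) and that of Ifit3 in 2 of these 4 fits (adjusted p up to 0.0915).

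Of 30 complement and coagulation genes, products of hepatocytes for the most part, 18 were higher in MOER PPT and 1 in ERKO PPT (C6, -0.39, lost in 3 of the 4 fits without 1 array), with a median of 0.43 and 14 to 15 higher without 1 of the 4 arrays. F5, coagulation factor V, read 1320.3 and 1342 in MOER PPT and 689.7 and 682 in ERKO PPT (1.92-fold, adjusted p = 3.73e-05). C4b, complement component C4, was 2.11-fold higher in MOER (adjusted p = 3.9e-05), Serpinf2, the plasmin inhibitor, 1.95-fold (adjusted p = 8.18e-05), and F2, prothrombin, 1.89-fold (adjusted p = 0.000101).

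Of 22 macrophage and Kupffer cell markers, 15 were higher in MOER PPT and 2 in ERKO PPT, with a median of 0.60, and the summed intensity was 24942 and 24912 in MOER PPT and 17532 and 17111 in ERKO PPT, the lowest 2 of the 12 arrays. Marco, a scavenger receptor, read 335 and 357 in MOER PPT, 49 and 46.3 in ERKO PPT and 969 and 987 in wild type PPT (at least 5.86-fold higher in MOER than in ERKO, adjusted p = 3.31e-06). Mpeg1, perforin-2 of phagocytes, was 1.93-fold higher in MOER (2087 and 2262 against 1126 and 1106), and Cd5l, a secreted macrophage protein, 1.82-fold (2848 and 2853 against 1553 and 1560.3). The 2 lower genes were Cd163, the haemoglobin scavenger receptor, at 98.1 and 116 against 358 and 336 (2.96-fold higher in ERKO, adjusted p = 2.92e-06), and Clec7a, the beta-glucan receptor, at 135 and 154 against 341 and 309 (2.13-fold higher in ERKO). MOER PPT was the lowest group for both.

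A few chemokines differed, in both directions. Of 19 tested, 4 were higher in MOER and 2 in ERKO (1 to 2 in ERKO without 1 of the 4 arrays), with a median of 0.02. Cxcl1, the neutrophil attractant, read 1901 and 1864 in MOER PPT and 327 and 318 in ERKO PPT (5.61-fold, adjusted p = 1.33e-07), and MOER PPT lay at least 2-fold above all other 10 arrays. Cxcl13, the B cell attractant, was 2.72-fold higher in MOER (862 and 1022 against 324 and 346), Ccl6 1.62-fold higher, and Ccl24, the eotaxin-2 gene, 1.82-fold higher in ERKO (259.5 and 267 against 149.7 and 125). Of 11 neutrophil markers, 1 was higher in MOER (Prtn3, 2.27-fold) and 2 in ERKO (1 without 1 of the 4 arrays), S100a8 (-0.74) and S100a9 (-0.51, a call lost whichever of the 4 arrays was left out, adjusted p up to 0.222). Of 9 class II histocompatibility genes, 2 were higher in MOER (1 to 2 without 1 of the 4 arrays), H2-Ea as above and Cd74, the invariant chain (0.55, adjusted p = 0.0222, lost in 3 of the 4 fits without 1 array).

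**Figure D3:**
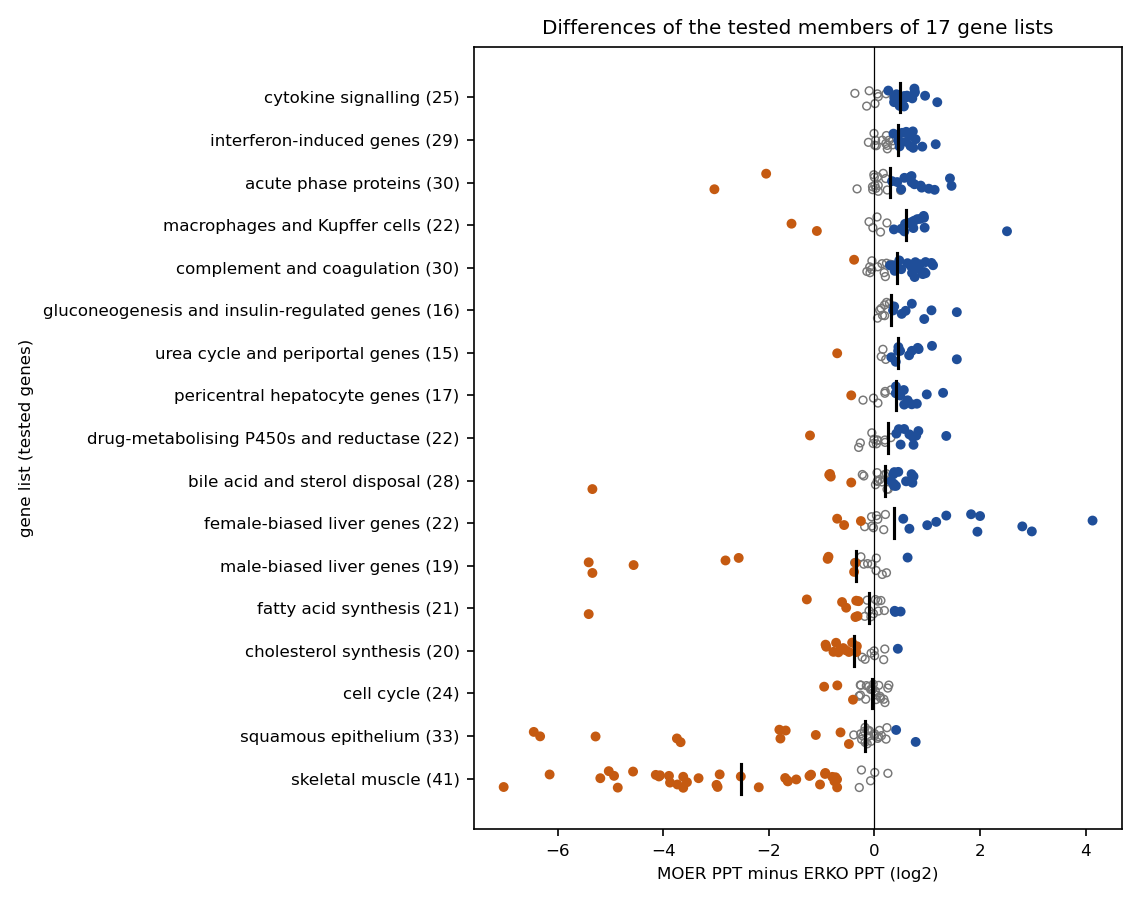
Log2 difference of MOER PPT minus ERKO PPT for the tested members of 17 gene lists (a point per gene, number tested in brackets). Filled points were called at an adjusted p under 0.05, blue where higher in MOER and orange where higher in ERKO, open points were not called, and black bars are list medians. Cytokine, interferon and macrophage genes lie mostly to the right, cholesterol synthesis and male-biased genes to the left, and muscle genes reach -7.02.

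Several lists held few or mixed differences. Clock genes differed in 10 of 20 cases, 8 higher in MOER and 2 in ERKO (4 to 5 and 2 without 1 of the 4 arrays), with a median of 0.27. Dbp, an output factor of the clock, was 2.21-fold higher in MOER PPT (499.6 and 436 against 202 and 202, adjusted p = 7.81e-05), and Tef, a related factor, 1.78-fold higher. The core clock genes Arntl (115 and 121 against 217 and 205) and Clock (634 and 690.4 against 1037 and 1028) were 1.7-fold and 1.55-fold higher in ERKO. The hour at which livers were taken is not stated in the sources used. Of 27 endoplasmic reticulum stress genes, 7 were higher in MOER and 4 in ERKO (3 to 4 and 2 to 3 without 1 of the 4 arrays). Among them Herpud1, of protein degradation, was 1.84-fold higher and Hyou1, a chaperone, 1.51-fold higher in MOER, whereas the secreted Manf was 1.69-fold and Sdf2l1 1.45-fold higher in ERKO.

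Few cell cycle genes were called: 0 of 24 were higher in MOER and 3 in ERKO (0 to 2 without 1 of the 4 arrays), with a median of -0.04. Of 29 oxidative phosphorylation genes, 4 were higher in MOER and 8 in ERKO (0 to 2 and 1 to 3 without 1 of the 4 arrays), with a median of -0.17. Cycs, cytochrome c, was among the genes higher in ERKO (-0.58, adjusted p = 0.00239). The muscle transcripts of ERKO PPT lie on the same arrays, and their part in this list was not tested. Of 20 retinoid and iron genes, 6 were higher in MOER and 4 in ERKO (2 to 3 and 2 without 1 of the 4 arrays), with a median of 0.03. The iron genes were clearest: Tfr2, the hepatocyte iron sensor, was 2.26-fold higher in MOER (1036 and 968 against 440.0 and 429, adjusted p = 2.92e-05), Hmox1, haem oxygenase, 2.39-fold higher in MOER, and Tfrc, the transferrin receptor, 1.78-fold higher in ERKO (adjusted p = 0.00021). Of 17 immediate early and heat shock genes, used as a sign of handling, 5 were higher in MOER and 1 in ERKO (1 to 3 and 1 to 2 without 1 of the 4 arrays). Egr1 was called higher in MOER (adjusted p = 0.00104) and Dusp1, a phosphatase induced by stress, higher in ERKO (1.45-fold, adjusted p = 0.00348).

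Markers of further cell types that whole liver can hold gave these counts. Of 9 adipocyte genes, 0 were higher in MOER and 4 in ERKO, namely Fabp4, Pparg (1.58-fold), Retn and Adipoq, of which 2 were admitted to the test by the ERKO PPT arrays alone, and the adipocyte genes Ucp1, Cidea, Lep and Plin1 read at most 72.3 on any array. Of 20 endothelial genes, 1 was higher in MOER and 3 in ERKO (0 and 0 to 1 without 1 of the 4 arrays), and of 19 stellate cell and fibroblast genes 2 and 3 (0 to 1 and 2). Among the latter Des, desmin of stellate cells and of muscle, read 215 and 197 in ERKO PPT and 75.6 and 65.7 in MOER PPT, and Lrat, which stores retinol in stellate cells, 498 and 505 against 246 and 263 (1.91-fold higher in ERKO, adjusted p = 0.000175). Of 13 lymphocyte genes 1 was higher in ERKO (Gzma, lost whichever of the 4 arrays was left out), of 5 red cell precursor genes 2 (Car1, 2.46-fold, and Alas2, lost likewise), and of 8 bile duct genes 0 in either direction. Pancreatic acinar genes, very bright in MOER oil (summed intensity 54573 and 43927), were near background in MOER PPT (1510 and 1507) and ERKO PPT (1197 and 1192). Their 2 calls under PPT were Dmbt1, a mucosal scavenger protein gene, at 314 and 359 in MOER PPT against 28.1 and 25.8 in ERKO PPT (at least 5.69-fold), and Reg1 at 46 and 43.1 against 9.58 and 8.22.

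Fewer probe sets were called between the same genotypes under oil. MOER oil against ERKO oil gave 392 called probe sets and 302 called genes (2.16%). Of the 4225 probe sets called under PPT, 176 were called under oil too (4.17% of the PPT calls and 44.9% of the oil calls), 65 in the same direction and 111 in the opposite one. The difference between the 2 comparisons was itself called for 2193 probe sets and 1624 genes (11.6%). Of the 388 probe sets with at least a 2-fold difference under PPT, 322 had a called difference from oil in the same direction, and 17 were called under oil in the same direction. The oil count rests on the ERKO oil pair with its larger spread: it was 2151 without ERKO oil replicate 1 and 1310 without replicate 2, where the PPT count was 6211 in both fits. It was 166 and 123 without MOER oil replicate 1 and 2, and 250 to 279 without 1 of the other 8 arrays. The count for the difference between PPT and oil was 4802 and 3407 without ERKO oil replicate 1 and 2, and 1078 to 1309 without 1 of the other 6 mutant arrays. The 2 oil groups also differ in their pancreatic transcripts and in clock genes, of which 1 of 20 was higher and 10 were lower in MOER oil. The part of these differences in the comparison of PPT with oil was not tested.

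By this test of the difference, male-biased, female-biased, immune and clock genes were among those that set PPT apart from oil. The difference from oil was -5.61 ± 0.21 on the log2 scale for Slco1a1 (adjusted p = 4.79e-08), 3.42 ± 0.17 for Sult1e1 (adjusted p = 5.03e-07) and 3.08 ± 0.13 for Cyp2b13 (adjusted p = 1.28e-07). For the lists, it was called in MOER's favour or against it for 10 and 2 of 22 female-biased genes, 3 and 6 of 19 male-biased genes, 15 and 3 of 30 acute phase genes, 17 and 0 of 29 interferon genes, 16 and 0 of 30 complement and coagulation genes, 9 and 0 of 25 cytokine genes, 8 and 0 of 16 gluconeogenesis genes and 0 and 7 of 20 cholesterol genes. For clock genes it was 12 and 2 of 20, and these genes differed under oil as well. Under oil itself 0 of the cholesterol genes were called, 1 of the cytokine genes was lower in MOER and 2 of the interferon genes were lower. Muscle genes gave 0 and 34 of 41, but they passed the filter largely through the ERKO PPT arrays, so this count is a description. The same limit holds for Hsd3b5 among the 6 male-biased genes. H2-Ea, in contrast, was higher in MOER both under oil (7.16, adjusted p = 1.1e-11) and under PPT (6.31, adjusted p = 4.14e-11).

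**Figure D4:**
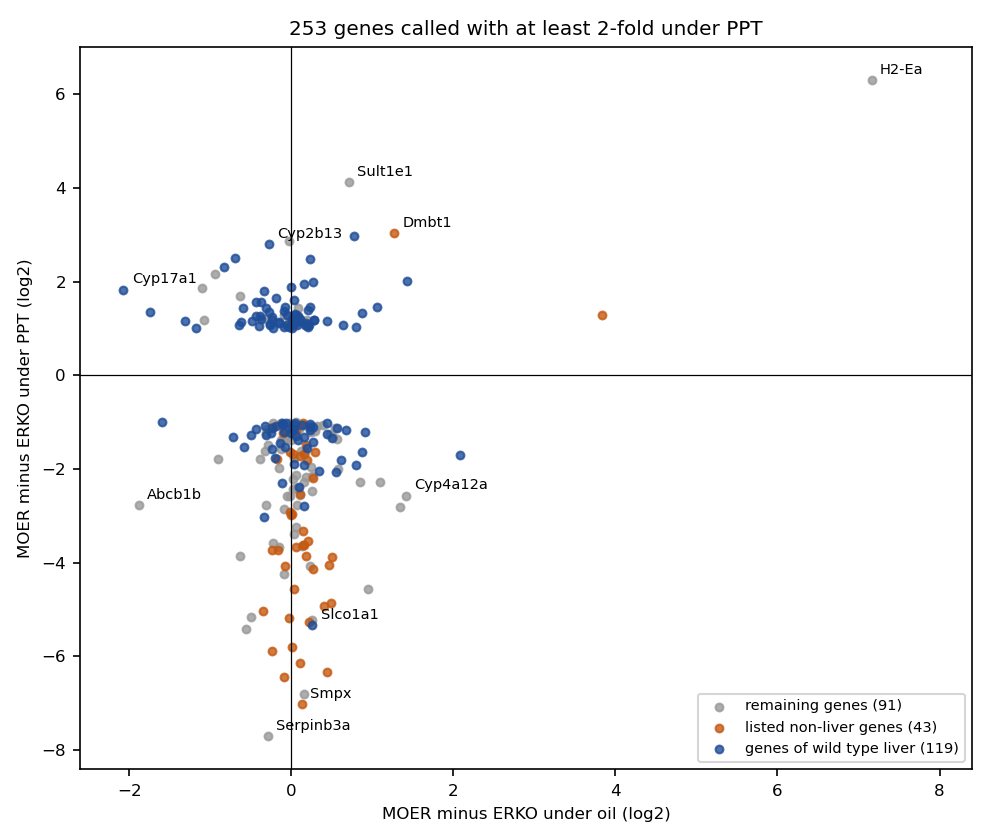
Log2 difference of MOER minus ERKO under PPT (vertical axis) against the same under oil (horizontal axis) for the 253 genes called with at least 2-fold under PPT, coloured by class. H2-Ea is far from 0 on both axes, and Cyp17a1 and Cyp4a12a have opposite signs under oil and PPT.

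Side by side against wild type PPT, whose arrays enter both values, MOER PPT and ERKO PPT departed from wild type in many genes, 5208 (37.2%) and 4800 (34.3%) of 13987. For some genes MOER lay closer to wild type. Pck1 was 0.11 in MOER (adjusted p = 0.434) and -1.45 in ERKO (adjusted p = 1.67e-06), Lyz2, lysozyme of macrophages, 0.25 (adjusted p = 0.0617) and -0.69 (adjusted p = 0.000196), and Itih1 -0.11 (adjusted p = 0.366) and -1.12 (adjusted p = 3.53e-06). For others ERKO lay closer, such as Cxcl1 at 2.28 in MOER and -0.21 in ERKO (adjusted p = 0.186) and Cd163 at -1.30 and 0.27 (adjusted p = 0.0691). For Slco1a1 the mutants stood on opposite sides of wild type, at -2.51 in MOER and 2.84 in ERKO (adjusted p = 4.62e-07 and 1.55e-07), and Sult1e1 did so in the other order, at 2.31 and -1.83 (adjusted p = 2.02e-07 and 1.03e-06).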

How the data were processed

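Per the labels, the authors hybridised liver RNA to Mouse Gene 1.0 ST arrays and compared groups with Cyber-T at 99.99% confidence and 2-fold. The deposited series matrix holds linear intensity values for 28815 probe sets. Their summarisation and normalisation are not given in the sources used here. Groups were taken from the sample titles.

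Intensities were transformed as log2(value + 16), which understates differences of dim genes. Tested were the 19119 probe sets that exceeded their array's 40th percentile on at least 2 of 12 arrays. limma 3.58.1 in R 4.3.3 fitted 6 group means without trend, with moderated tests, two-sided, and Benjamini-Hochberg adjustment. In simulated data 200 of 19119 probe sets were changed, divided among log2 differences of 0.5, 1 and 2 in either direction. Of those at each size, 41.8%, 97% and 100% were recovered. Far more probe sets (22.1%) were called in the real data, and recovery depends on that share, so these figures do not give the sensitivity here. A gene is represented by its tested probe set of highest mean. By platform annotation 21780 probe sets had 1 symbol, 1605 several and 5430 none, and only the first were named. Where both arrays of a group lay under their 40th percentile, a bound ("at least") sets the brighter mean against the mean of those percentiles. The number of arrays limits the precision.

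Named were the 12 largest differences each way among wild type liver genes called with at least 2-fold, the 8 largest among the remaining genes, up to 4 called members of smallest p in each list, and the 6 largest muscle and squamous genes. Other genes were named after their values were seen. The members, lists and tests were chosen with earlier results of these data known. Some genes of the lists are not reported here. Alternatives covered the pseudocount, filter, scaling, trend, arrays in the fit, replicate block and arrays left out.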

Additional observations from a re-analysis of the deposited data

Results flagged for a closer look

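The PPT difference between MOER and ERKO, minus the same difference under oil, was called for 2193 probe sets and for the genes that follow, each with this change in brackets on the log2 scale (limma, adjusted p under 0.05). A negative value means that ERKO was higher, relative to MOER, under PPT than under oil.

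Liver genes of sex-biased or steroid metabolism included Slco1a1 (-5.60), Elovl3 (-4.85), Hsd3b5 (-5.51), Cyp17a1 (3.90), Sult1e1 (3.42), Cyp2b13 (3.08), Cyp3a16 (2.21), Sult3a2 (2.14), Cyp2b9 (1.79), Sult3a1 (1.73) and Cyp2b19 (1.34). Genes of lipid and bile acid metabolism were Lpl (-1.92), Fabp2 (-1.56), Fabp4 (-2.41), Cyp8b1 (-1.29) and Hmgcs1 (-0.54), and those of glucose production and transport Pck1 (1.93), Slc22a26 (1.88) and Slc7a2 (1.83). Immune and acute phase genes were Marco (3.19), Cxcl1 (2.25), Jchain (2.33), Irf7 (1.64), Aoah (1.37), Lcn2 (1.13), Saa3 (-2.69) and A2m (-2.39). Lcn2 did not differ under PPT by the test. H2-Ea (-0.85) was higher in MOER under both treatments, with lower intensities under PPT.

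Genes expressed in muscle or squamous and other surface epithelia were Serpinb3a (-7.42), Serpinb12 (-6.96), Cox8b (-5.49), Fabp3 (-4.67), Defb4 (-4.30), Apobec2 (-4.16), Cox7a1 (-2.47), Slc25a4 (-2.19) and Klhl41 (-2.07). The others were Noct (3.15), Abhd1 (3.10), Pcdh11x (2.98), Adgrg7 (2.89), Clec2h (-2.95), Serpina12 (-2.71), Nrep (-2.61) and Socs2 (-1.48). Hsd3b5, Serpinb3a, Serpinb12, Fabp3, Defb4, Apobec2, Pcdh11x and Adgrg7 entered the test only through the PPT arrays where they were high, so their values are a description. The oil arrays in these differences include the ERKO oil pair, which had the largest spread.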

How the results depend on the processing

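Leaving out 1 array at a time, the probe sets called between MOER PPT and ERKO PPT numbered 1848 to 6211, with the largest count without either ERKO oil array. Those higher in MOER numbered 899 to 2881, those higher in ERKO 915 to 3330, and those with at least a 2-fold difference 383 to 423. The difference between PPT and oil was called for 1078 to 4802 probe sets in these fits and for 3502 under quantile normalization, against 2193. The other alternatives gave 3177 (no filter) to 5269 (quantile normalization) called probe sets. The oil comparison, whose alternatives were chosen after seeing the data, gave 123 to 2151 calls without 1 array, 236 without the filter, 813 under quantile normalization and 767 with a trend, against 392. With a replicate block 4170 probe sets were called under PPT, 360 under oil and 2180 for the difference between them. The deviations of same-numbered arrays correlated at -0.026 between MOER PPT and ERKO PPT and at 0.276 to 0.377 among the 3 oil groups (-0.147 to 0.127 over all other pairs of groups). With 2 arrays a group and no label that links them, the numbers were not taken to pair the arrays. The share of calls higher in MOER was 45.4%, 50.7% under quantile normalization and 39.0% under median centring. The medians of the chemokine and of the retinoid and iron lists, 0.02 and 0.03, were -0.00 and 0.00 under median centring. A Cyber-T-style test called 390 probe sets with at least 2-fold. Of 173 called named genes, 142 were called in every alternative that tested them (5 of the 142 were not tested under the 60th percentile filter) and 31 were lost in at least 1, and no direction reversed.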

Other observations

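Some genes were called in opposite directions under oil and PPT. Cyp3a13, a P450 of drug metabolism, was -1.74 under oil and 1.36 under PPT (MOER minus ERKO, log2, adjusted p = 2.06e-06 and 4.32e-06). The clock output gene Dbp was -1.31 and 1.15 (adjusted p = 0.00014 and 7.81e-05), and the core clock gene Arntl 1.43 and -0.76 (adjusted p = 5.29e-06 and 0.000178). Under oil 10 of 20 clock genes were lower in MOER and 1 was higher.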
